A study of Mus musculus with 59 samples.

Results

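Interferon-stimulated genes were followed across brown adipose tissue (BAT) of 59 mice. The genes were chosen by name as a list of 38 well-known members of the interferon response, out of 55341 genes in each count table, with no threshold on a measured value. The RNA of whole BAT from male C57BL/6J mice of 8 to 12 weeks was sequenced in 3 experiments, which were normalised and compared separately. In the thyroid hormone (TH) experiment, wild-type (WT) mice made hypothyroid with propylthiouracil (PTU), an inhibitor of TH synthesis given in the food, were left without hormone (WT PTU, n = 4) or received a single injection of T3 and T4 and were studied 3, 6, 12 or 24 h later (n = 4 at each time). BATKO mice on PTU without hormone (n = 5) or 24 h after TH (n = 5) completed that experiment. In the temperature experiment, control mice (CTRL) were housed at 30 °C (n = 4) or exposed to 4 °C for 24 h (n = 3), and BATKO mice at 30 °C (n = 5) or 4 °C (n = 4). In the diet experiment, CTRL mice received chow (n = 4) or a high-fat diet (HFD) for 3.5 days (n = 4), and BATKO mice chow (n = 2) or HFD (n = 3). BATKO is the label of the knockout line, and the gene removed and the promoter that removes it are not given in the sources used here, so the targeted gene could not be checked.

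Interferons are secreted proteins that warn cells of a viral infection. Type I interferons act through the receptor chains Ifnar1 and Ifnar2, the kinases Jak1 and Tyk2 and a transcription factor complex with Stat2 and Irf9 that binds interferon-stimulated response elements (ISRE) in promoters, whereas interferon gamma acts through Ifngr1 and Ifngr2 on gamma-activated sites (GAS). The genes they switch on encode sensors of foreign RNA and DNA, enzymes and binding proteins that block viral RNA or protein synthesis, GTPases that attack intracellular pathogens and parts of the antigen-presentation machinery, and most are transcribed at a low basal level in tissues without infection.

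The promoters are described first. The list was chosen by name for the interferon response, which acts through the ISRE, so an excess of ISRE matches is no independent result. RefSeq promoter sequences (GRCm38.p6, the 250 bases before the start) were present for 27 of the 38 genes. The 11 without a sequence were Dhx58, Zbp1, Oas2, Mx1, Mx2, Usp18, Parp9, Parp14, Iigp1, Ifi27 and Rtp4. The ISRE core, a pair of GAAA blocks separated by any 2 bases and searched on both strands, was found in 13 of these 27 genes (Bst2, Gbp2, Gbp3, Gbp7, Ifit1, Ifit3, Igtp, Irgm1, Isg15, Oas1a, Oas3, Rsad2 and Stat2), against 3.46% of the 27025 genes in the table and 2.98% of its 32851 promoters. The GAS core TTCNNNGAA, which reads the same on both strands, was found in 6 of the 27, against 8.13% of all genes. In the other members, the absence of a match says only that these letters are not in this window. From 6 of the 13 genes with a match, windows of 60 bases are shown, of a pair of IFIT genes, of Isg15, of Bst2 and of a pair of the GTPases. Each is written 5′ to 3′ on the strand of the gene, with the ISRE matches in capitals, which read as a pair of TTTC blocks where the match lies on the other strand. Overlapping matches run together. Another match of Ifit3, TTTCACTTTC at chr19:34583373-34583382, lies before its window except for its last base, which is in lower case.
Ifit1, chr19:34640779-34640838 (+): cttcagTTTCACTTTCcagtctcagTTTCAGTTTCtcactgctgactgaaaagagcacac
Ifit3, chr19:34583382-34583441 (+): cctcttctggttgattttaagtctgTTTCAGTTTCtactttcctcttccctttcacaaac
Isg15, chr4:156200850-156200909 (-): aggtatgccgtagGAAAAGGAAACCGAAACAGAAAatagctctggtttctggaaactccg
Bst2, chr8:71537562-71537621 (-): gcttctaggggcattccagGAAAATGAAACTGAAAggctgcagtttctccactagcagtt
Igtp, chr11:58199496-58199555 (+): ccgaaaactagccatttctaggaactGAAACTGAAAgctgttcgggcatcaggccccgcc
Gbp7, chr3:142530258-142530317 (+): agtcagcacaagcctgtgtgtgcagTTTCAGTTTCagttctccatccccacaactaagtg

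Total counts were 7805938 to 18073627 per mouse in the TH experiment, 8008348 to 12887313 in the temperature experiment and 7612059 to 11533900 in the diet experiment, and genes of the mitochondrial genome took 39.2 to 55.7% of them. Levels are given as normalised read counts, the count of a gene scaled to the mean effective library size of its experiment. Differences were tested with the quasi-likelihood test of edgeR, and p-values were adjusted by the Benjamini-Hochberg method over all genes with a mean normalised count above 10 in the mice of the fit, and a gene is called where the adjusted p is below 0.05. Errors of log2 fold changes are standard errors. Of the 38 genes, 31 passed the count filter in the 20 WT mice given PTU with or without TH, 34 in the temperature experiment and 35 in the diet experiment. Oas1a, Oas3 and Mx1 passed in none of them, with at most 17, 23 and 35 raw counts in any mouse. The low count of Oas1a is uncertain, since 57.6% of its 50-base windows also occur in Oas1g. The other genes left out were Mx2, Oasl1, Zbp1 and Isg15 in those WT mice and Mx2 in the temperature experiment. Skeletal muscle RNA differed widely between mice, the summed normalised count of Acta1, Ckm and Myh4 running from 2.6 to 70411 in the temperature experiment, and the counts of calls are also given without the mice above 10000.

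Cold lowered most of the measured list. In CTRL mice, 28 of 34 tested genes fell at 4 °C against 30 °C and 2 rose, where 22.6% of all 13267 tested genes fell and 26.5% rose. The median log2 fold change of the 34 genes was -1.33, and that of all tested genes was -0.01. The lowest was Zbp1 (-2.68), the highest Ifi27 (1.72), and 30 of the 34 estimates were below 0. In BATKO mice, 24 of 34 fell and the same 2 genes, Dhx58 and Ifi27, rose, against 18.9% of all genes that fell and 21.4% that rose, with a median of -0.84 for the list and -0.02 for all genes. The counts of all 4 °C mice lay below those of all 30 °C mice for 27 genes in CTRL (23.7% of all genes) and for 21 in BATKO (14.3% of all genes). Without the muscle-rich mice, 23 fell and 2 rose in CTRL, and 18 fell and 1 rose in BATKO. The heat map shows the list mouse by mouse, and the plot of fold changes sets the genotypes side by side.

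**Figure D1:**
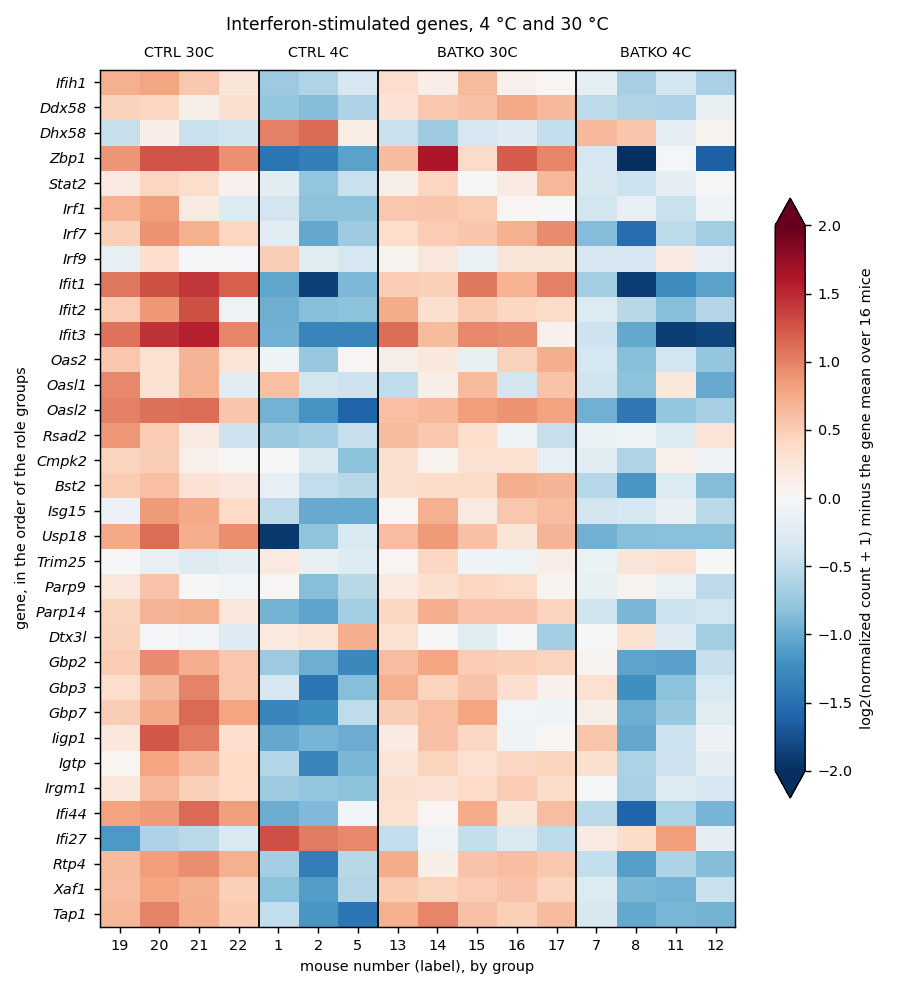
Each row is an interferon-stimulated gene tested in the temperature experiment (34 genes, ordered by role) and each column a mouse of the CTRL 30C, CTRL 4C, BATKO 30C and BATKO 4C groups. Colour is log2(normalised count + 1) minus the mean of the gene over the 16 mice, with the colour scale ending at -2 and 2. Most genes are above their mean in the 30 °C mice of both genotypes and below it in the 4 °C mice, and Dhx58 and Ifi27 mostly show the opposite.

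**Figure D2:**
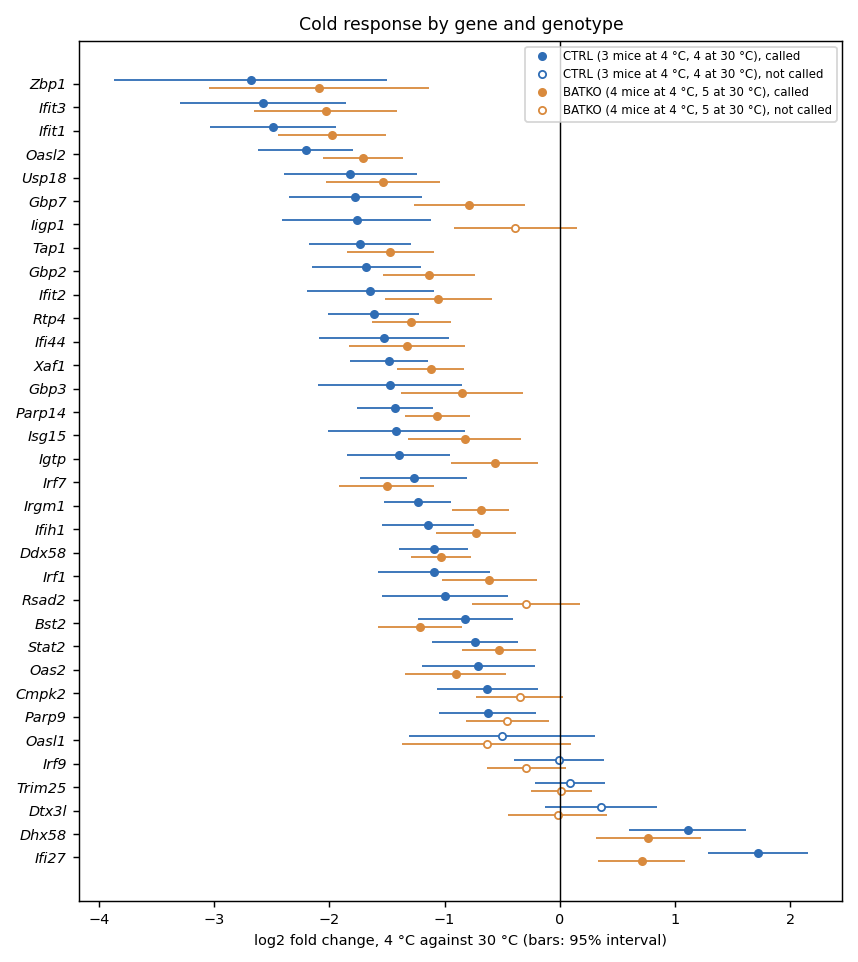
Points are log2 fold changes of 4 °C against 30 °C for each of the 34 genes in CTRL and BATKO mice, with bars for the 95% interval. In CTRL mice the values run from -2.68 (Zbp1) to 1.72 (Ifi27), and in BATKO mice from -2.09 (Zbp1) to 0.77 (Dhx58).

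The Ifit genes, whose proteins bind viral RNA and block its translation, were among those with the deepest falls. Ifit1 (chr19:34640871-34650009, + strand) had 97.2, 113, 126 and 108 normalised counts in the 4 CTRL mice at 30 °C and 22.1, 12.0 and 24.5 in the 3 at 4 °C. In BATKO mice it had 66.5, 64.5, 97.4, 75.9 and 94.2 at 30 °C and 28.1, 11.8, 19.1 and 21.5 at 4 °C. Every cold mouse was below every mouse at 30 °C, in both genotypes. The fall of Ifit1 was 5.61-fold in CTRL (log2 fold change -2.49 ± 0.28, edgeR adjusted p = 2.8e-06) and 3.93-fold in BATKO (-1.97 ± 0.24, adjusted p = 1.2e-05). Ifit2 fell by 1.64 ± 0.28 and 1.05 ± 0.24 on the log2 scale, and Ifit3 by 2.57 ± 0.37 and 2.03 ± 0.32. Reads of Ifit3 are uncertain, since 51.2% of its 50-base windows also occur in Ifit3b.

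The 2′-5′-oligoadenylate synthetase family makes a messenger that activates RNase L, and Oasl2 is a member of it with a binding role for double-stranded RNA. Oasl2 (chr5:114896936-114912234, + strand) had 241, 257, 260.2 and 175 normalised counts in CTRL at 30 °C and 61.3, 52.1 and 38.5 at 4 °C. Its counts in BATKO were 182, 187, 215, 224 and 208 at 30 °C and 60.6, 43.6, 69.3 and 74.6 at 4 °C. No cold mouse reached the lowest mouse at 30 °C. Oasl2 fell 4.61-fold in CTRL (-2.21 ± 0.21, edgeR adjusted p = 5.6e-07) and 3.26-fold in BATKO (-1.71 ± 0.18, adjusted p = 2.6e-06), the smallest adjusted p of the list in each genotype. Oas2 fell less, by 0.71 ± 0.25 and 0.90 ± 0.22, and Oasl1 was not called (-0.50 ± 0.41 and -0.64 ± 0.37).

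Among the sensors, the double-stranded RNA receptors Ddx58 (RIG-I) and Ifih1 (MDA5) and the nucleic acid sensor Zbp1 fell in both genotypes, and Dhx58 (LGP2), their relative without a signalling domain, rose. Ddx58 (chr4:40203773-40239828, - strand) had 323, 316, 252 and 293 normalised counts in CTRL at 30 °C and 136, 127 and 152 at 4 °C. In BATKO it had 285, 340, 351, 396 and 367 at 30 °C and 162, 153, 152 and 212 at 4 °C. The groups of Ddx58 did not overlap, and the fall was -1.10 ± 0.15 and -1.03 ± 0.13. Ifih1 fell by 1.14 ± 0.20 in CTRL and 0.73 ± 0.18 in BATKO. Zbp1 was low, with 16.5 to 21.7 normalised counts in CTRL at 30 °C and 2.45 to 3.50 at 4 °C, and its fold change rests on few reads.

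Dhx58 (chr11:100694884-100704271, - strand) moved the other way. It had 30.4, 46.1, 30.7 and 31.7 normalised counts in CTRL at 30 °C and 85.9, 93.5 and 46.7 at 4 °C. In BATKO it had 30.7, 25.2, 33.1, 35.1 and 29.4 at 30 °C and 66.0, 62.4, 37.0 and 44.0 at 4 °C. All cold mice were above all mice at 30 °C of their genotype, although the lowest cold CTRL mouse exceeded the highest at 30 °C only slightly. Dhx58 rose 2.16-fold in CTRL (1.11 ± 0.26, edgeR adjusted p = 0.0021) and 1.70-fold in BATKO (0.77 ± 0.23, adjusted p = 0.015). Its exons share 141 bases with the antisense gene Dhx58os.

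Ifi27, a small protein of the mitochondrial membrane, was the other gene that rose, and it was the highest of the list per kilobase of exon, with 1162 ± 268 normalised counts per kb in CTRL at 30 °C (SD, n = 4) against 207 ± 19.4 for Rtp4, the next. Ifi27 (chr12:103434211-103440239, + strand) had 1180.3, 1703, 1812 and 2124 normalised counts in CTRL at 30 °C and 6419, 5369 and 5075 at 4 °C. In BATKO it had 1865, 2456, 1885, 2142 and 1828 at 30 °C and 2941, 3393, 4685 and 2309.9 at 4 °C. The CTRL groups were far apart and the BATKO groups overlapped. Ifi27 rose 3.30-fold in CTRL (1.72 ± 0.22, edgeR adjusted p = 9.7e-06) and 1.64-fold in BATKO (0.71 ± 0.19, adjusted p = 0.0076).

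Of the transcription factors of the pathway, Stat2, Irf1 and Irf7 fell in both genotypes. The log2 fold changes in CTRL and BATKO were -0.73 ± 0.19 and -0.53 ± 0.16 for Stat2, -1.09 ± 0.25 and -0.61 ± 0.21 for Irf1, and -1.27 ± 0.24 and -1.50 ± 0.21 for Irf7, which drives interferon genes. Irf9, the DNA-binding partner of Stat2, was not called (-0.01 ± 0.20 and -0.29 ± 0.18).

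The ubiquitin-like modifier Isg15 fell 2.67-fold in CTRL, from 18.2, 36.5, 34.3 and 26.4 normalised counts at 30 °C to 13.5, 9.35 and 9.34 at 4 °C, and 1.77-fold in BATKO, from 20.5, 33.3, 22.7, 29.4 and 30.9 to 15.2, 15.3, 17.9 and 13.3. These groups did not overlap, although the counts were low. Usp18, the protease that removes Isg15 and dampens the receptor, fell by 1.82 ± 0.29 and 1.53 ± 0.25 on the log2 scale. Trim25, the ubiquitin ligase that activates RIG-I, was not called (0.09 ± 0.16 and 0.01 ± 0.14), with 95% intervals of -0.22 to 0.39 in CTRL and -0.25 to 0.28 in BATKO.

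The interferon-inducible GTPases, which act on membranes around intracellular pathogens, fell in 6 of 6 cases in CTRL and in 5 of 6 in BATKO. Irgm1 (chr11:48861968-48871683, - strand) had 211, 289, 254 and 239 normalised counts in CTRL at 30 °C and 109, 104 and 103 at 4 °C. In BATKO it had 228, 223, 237, 259 and 235 at 30 °C and 176, 115, 150.4 and 144 at 4 °C. The groups of Irgm1 did not overlap in either genotype, and the fall was -1.23 ± 0.15 in CTRL and -0.69 ± 0.13 in BATKO. Gbp2, Gbp3, Gbp7 and Igtp fell by 1.68, 1.47, 1.77 and 1.40 in CTRL and by 1.13, 0.85, 0.78 and 0.57 in BATKO. Iigp1 fell in CTRL (-1.76 ± 0.33), where its counts went from 152, 309, 268 and 165 to 63.8, 68.1 and 65.3. In BATKO, the cold mice had 193, 63.6, 96.7 and 121 against 147, 197, 174, 124 and 134, the groups overlapped and Iigp1 was not called (-0.38 ± 0.27).

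Other members with a deep fall were Xaf1, which promotes apoptosis, Rtp4, a receptor transporter with antiviral activity, Parp14, a mono-ADP-ribosyltransferase, and Tap1, the peptide transporter of antigen presentation. Xaf1 (chr11:72301629-72313733, + strand) had 288, 323, 305 and 261 normalised counts in CTRL at 30 °C and 105, 85.5 and 125 at 4 °C, a change of -1.48 ± 0.17. In BATKO, Xaf1 changed by -1.12 ± 0.15, from 270.2, 256, 267, 279 and 254 to 154, 98.9, 96.7 and 137. The groups of Xaf1 did not overlap, nor did those of the 3 others in either genotype. 

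Rtp4 (chr16:23520291-23614222, + strand) had 397, 459, 489 and 418 normalised counts in CTRL at 30 °C and 159, 97.5 and 174 at 4 °C. Its counts in BATKO were 429.7, 277, 382, 393 and 373 at 30 °C and 181, 119, 167 and 140.1 at 4 °C, and it changed by -1.61 ± 0.20 in CTRL and -1.29 ± 0.17 in BATKO. Every mouse at 30 °C was above every cold mouse, although BATKO mouse 14 lay well below the rest of its group. Parp14 (chr16:35832874-35871544, - strand) had 207, 243, 249 and 177 in CTRL at 30 °C and 78.5, 72.1 and 93.4 at 4 °C, and 202, 251, 226, 226 and 206 against 115, 80.1, 112 and 118 in BATKO. It changed by -1.43 ± 0.17 and -1.06 ± 0.14. Tap1 (chr17:34187553-34197225, + strand), which shares 212 exon bases with Psmb9 on the other strand, had 260.4, 325, 272 and 236 in CTRL at 30 °C and 115, 72.1 and 59.5 at 4 °C. In BATKO, Tap1 had 267, 324, 246, 229 and 252 at 30 °C and 129.9, 80.1, 85.97 and 83.8 at 4 °C. It changed by -1.73 ± 0.23 and -1.47 ± 0.19. Dtx3l, the ubiquitin ligase that pairs with Parp9, was not called (0.36 ± 0.25 and -0.02 ± 0.22). Dtx3l and Parp9 share 458 exon bases on opposite strands, and the strand setting of the counting is not given in the sources used here, so their reads may be mixed.

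**Figure D3:**
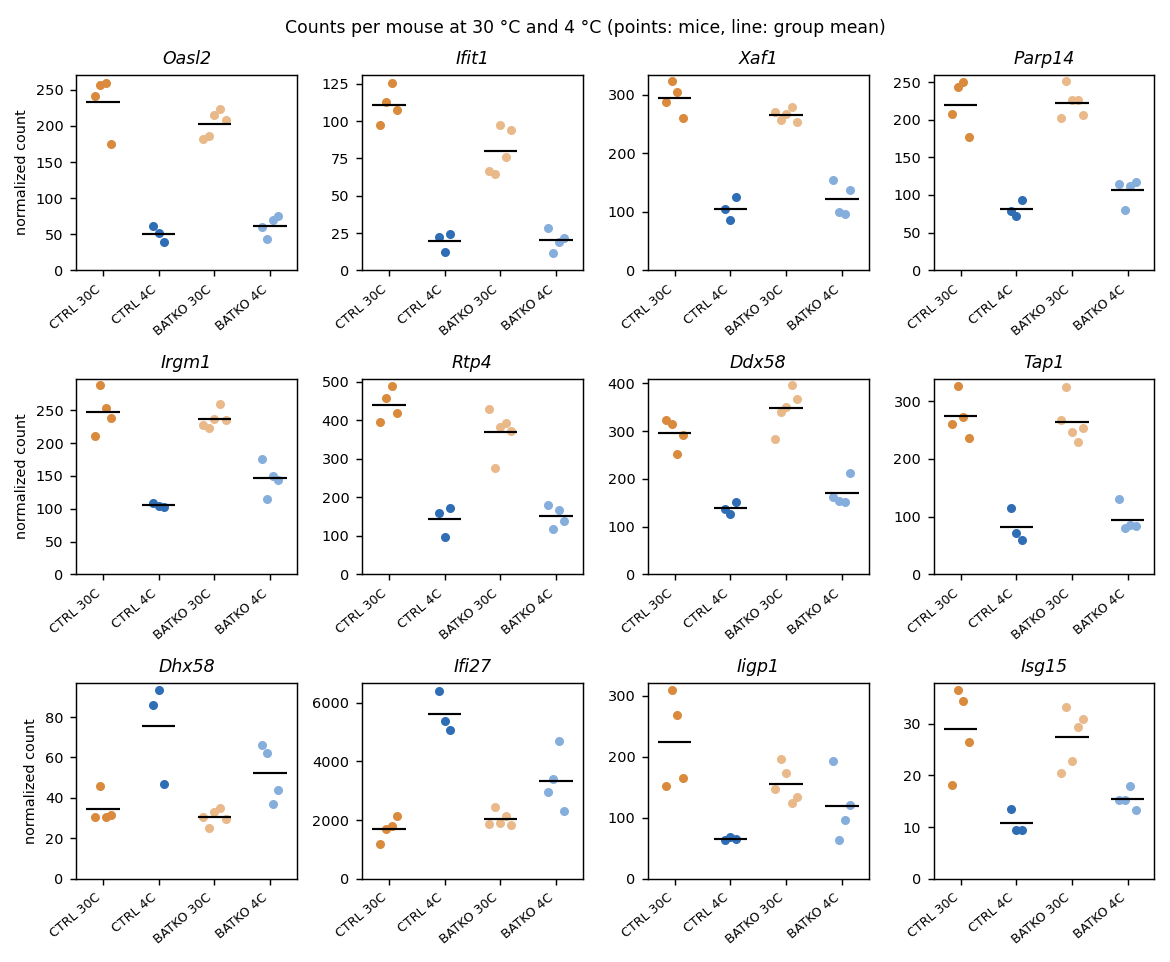
Normalised counts per mouse (points, with a line at the group mean) of 12 genes in CTRL and BATKO mice at 30 °C and 4 °C. Oasl2, Ifit1, Xaf1, Parp14, Irgm1, Rtp4, Ddx58, Tap1 and Isg15 are lower in all cold mice, Dhx58 and, in CTRL, Ifi27 are higher, and Iigp1 overlaps between the BATKO groups.

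Grouped by the promoter sequences, all 11 tested genes with an ISRE core fell in CTRL (median -1.42), where 22.6% of all genes fell. So did 10 of the 14 tested genes whose promoter window held none (median -1.12). In BATKO, 10 of 11 and 9 of 14 fell, with medians of -0.82 and -0.88, where 18.9% of all genes fell. The genes without a promoter sequence are in neither group, and Dhx58 and Ifi27, which rose, are among them. Rsad2 was the gene with an ISRE core that was not called in BATKO (-0.29 ± 0.24). Irf9, Oasl1, Trim25 and Dtx3l, the genes not called in CTRL, had no match.

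The fold changes of cold were compared between genotypes with an interaction term, and none of the 34 genes was called in edgeR, where 1.12% of all genes were called. At an unadjusted p below 0.05 there were 5 genes, and DESeq2 called 2. The smallest adjusted p values belonged to Ifi27, whose rise was smaller in BATKO by 1.01 ± 0.29 on the log2 scale (edgeR adjusted p = 0.087), and Iigp1, whose fall was smaller by 1.38 ± 0.42 (adjusted p = 0.096). The difference was positive for 25 of the 34 genes, with a median of 0.34 against -0.02 for all genes. It was positive for 6 of 6 GTPases (median 0.73) and 3 of 3 Ifit genes (0.54). These genes were measured in the same mice, so their signs are not independent. The mean log2 CPM (counts scaled to library size) of the 6 GTPases was 4.17 in BATKO 4 °C mouse 7. It was 3.04, 3.33 and 3.68 in mice 8, 11 and 12. Rsad2, Cmpk2, Parp9 and Iigp1 were called in CTRL and not in BATKO, and a difference between the genotypes was not established for any of them. BATKO and CTRL mice were also compared at each temperature, with 0 of 34 genes called at 4 °C by edgeR (6 at an unadjusted p below 0.05, 1 by DESeq2, 2.16% of all genes called) and 0 at 30 °C (2 at an unadjusted p below 0.05, 0 by DESeq2, 0.00754% of all genes called). Without BATKO 4 °C mouse 11, the interaction and the comparison at 4 °C each called 1 gene.

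The wider pathway was measured with a list of 58 further genes of interferon signalling, sensing and antigen presentation, of which 43 were tested. In each genotype 24 of the 43 fell in the cold and 2 rose, with medians of -0.66 in CTRL and -0.57 in BATKO, where 22.6% and 18.9% of all genes fell and 26.5% and 21.4% rose. The receptor chains Ifnar1 (-0.66 ± 0.17 and -0.52 ± 0.15) and Ifngr1 (-0.77 ± 0.16 and -0.73 ± 0.14) fell in both. The immunoproteasome subunit Psmb9 had 88.5 to 113 normalised counts in CTRL at 30 °C and 22.7 to 38.02 at 4 °C, and changed by -1.67 ± 0.20, against -1.73 ± 0.17 in BATKO. B2m, the light chain of MHC class I, changed by -0.91 ± 0.23 and -1.12 ± 0.20. Mavs, the mitochondrial adaptor of Ddx58 and Ifih1, rose by 0.80 ± 0.17 and 0.46 ± 0.15, and Irf3 rose in CTRL (0.74 ± 0.21). The interferon genes themselves were at or near 0. Ifna1, Ifna2, Ifna4, Ifne, Ifnk, Ifnl2 and Ifnl3 had 0 counts in every mouse of the 3 experiments, and Ifnb1 and Ifng had at most 1 and 2 raw counts in any mouse. A level under 3 counts per mouse could not be seen at this depth.

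Markers of immune cells were set beside the cold result, since in bulk tissue fewer cells of a type and less RNA per cell cannot be told apart. The pan-leukocyte gene Ptprc fell in CTRL (-1.14, edgeR adjusted p = 0.015), from 48.6 to 63.3 normalised counts at 30 °C to 12.3 to 42.0 at 4 °C, and was not called in BATKO (-0.20), with 30.3 to 41.3 and 15.3 to 43.3. The summed count of 6 macrophage markers was 643 to 994 at 30 °C and 583 to 632 at 4 °C in CTRL, with 0 of 6 called, and 477 to 690.4 and 629 to 865 in BATKO, with 1 of 6 called, Mrc1, which rose. The sum of 3 natural killer cell markers was 16.9 to 27.8 and 5.34 to 8.59 in CTRL, and 12.3 to 27.2 and 6.14 to 8.36 in BATKO. The sum of 3 dendritic cell markers was 12.2 to 22.2 and 5.34 to 6.13 in CTRL, and 8.53 to 18.4 and 3.58 to 14.1 in BATKO. The sum of 4 T cell markers was 15.4 to 32.1 and 5.34 to 11.0 in CTRL, and 13.3 to 27.3 and 15.2 to 29.4 in BATKO. The sum of 3 B cell markers was 6.34 to 17.4 and 2.33 to 4.91 in CTRL, and 4.74 to 16.2 and 2.05 to 40.03 in BATKO. Those of natural killer, dendritic, T and B cells were too low to be tested, and plasmacytoid dendritic cell markers summed to at most 7.06 in any mouse of the temperature experiment. The sum of 3 fibroblast and progenitor markers was 1806 to 2335 at 30 °C and 1112 to 1316 at 4 °C in CTRL, where Dcn and Lum fell and the median log2 fold change of the 3 was -0.64. In BATKO it was 1411 to 1942 and 1267 to 1810, where Lum fell and the median was -0.08. The sum of 3 neutrophil markers was 37.0 to 160.01 and 12.3 to 44.3 in CTRL, and 26.5 to 114 and 14.3 to 34.6 in BATKO, with 0 of 2 tested markers called in either. Of 3 endothelial markers, Kdr rose in CTRL and Cdh5 fell in BATKO. The part of these cell types in the result was not tested. Of 5 brown adipocyte markers, 4 rose and Adipoq fell in CTRL (median 2.57), and 4 rose and 0 fell in BATKO (median 1.19). Their sum was 14473 to 29741 at 30 °C and 175913 to 213308 at 4 °C in CTRL, and 18433 to 28195 and 94326 to 177130 in BATKO, most of it Ucp1 in the cold. The part of these markers in the result was not tested either.

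After TH, 3 to 7 of the 31 tested genes were called at each time. The 4 WT time points were each compared with the same 4 PTU mice, so their results are not independent of each other. At 3 h, 5 of 31 tested genes rose and 0 fell in edgeR, where 5.10% of all 13003 genes rose and 4.09% fell, and the median log2 fold change was 0.25 for the list and 0.01 for all genes, with 25 of 31 estimates above 0. At 6 h, 4 rose and 2 fell (12.1% and 10.9% of all genes), with a median of -0.09. At 12 h, 3 rose and 0 fell (13.6% and 12.1% of all genes), where DESeq2 called 5, edgeR with no filter on low counts 5 and edgeR on only the groups compared 7, and at 24 h, 6 rose and 1 fell (17.2% and 15.5% of all genes), with a median of 0.01 at both times. At 3 h the count fell from 5 to 1 without PTU mouse B3, to 2 without 3 h mouse B11, and to 3 without PTU mouse B2 or B5 or 3 h mouse B7. At 6 h it fell from 6 to 2 without 6 h mouse B15 and to 3 without PTU mouse B3, at 12 h it rose from 3 to 5 without 12 h mouse B20, and at 24 h it fell from 7 to 4 without PTU mouse B3 or B5. Without the 2 muscle-rich mice, B12 at 6 h and B26 at 24 h, the counts were 4, 5, 4 and 5 at 3, 6, 12 and 24 h, and the calls of Dtx3l at 3 and 24 h, Irf9 at 6 h and Irf1 at 24 h were lost.

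The guanylate-binding protein Gbp3 (chr3:142560026-142573209, + strand), with the ISRE match TTTCAGTTTC at chr3:142559999-142560008, was called at all 4 times. It had 31.1, 22.7, 24.1 and 26.5 normalised counts on PTU, 67.0, 58.0, 70.7 and 53.8 at 3 h and 69.2, 59.3, 63.1 and 45.5 at 6 h. At 12 h it had 77.0, 104, 67.3 and 89.8, and at 24 h 145, 115, 44.8 and 114. Every mouse with TH was above every PTU mouse. The log2 fold changes of Gbp3 were 1.23, 1.16, 1.69 and 1.99 at 3, 6, 12 and 24 h, each with an error of 0.27, or 2.34-, 2.24-, 3.22- and 3.97-fold. In BATKO mice, Gbp3 had 81.7, 82.6, 454, 76.3 and 91.7 on PTU and 392, 222, 396, 134 and 86.6 with TH, a wide overlap with 1 PTU mouse above all others, and it was not called. When WT and BATKO mice were fitted together (30 mice), the calls of Gbp3 at 3 h (edgeR adjusted p = 0.178) and 6 h (0.143) were lost.

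The sensor Dhx58 rose later. It had 21.1, 27.5, 15.8 and 31.1 normalised counts on PTU, 28.9, 23.6, 20.8 and 22.4 at 3 h and 30.5, 32.7, 53.4 and 50.04 at 6 h. At 12 h it had 62.3, 58.99, 68.5 and 56.1, and at 24 h 63.7, 43.9, 49.7 and 54.9. The 3 h mice overlapped the PTU mice, and all mice at 12 and 24 h were above them. Dhx58 was called at 6 h (0.82 ± 0.23), 12 h (1.40 ± 0.22) and 24 h (1.17 ± 0.22). In BATKO it had 49.97, 21.9, 62.0, 12.7 and 32.8 on PTU, a range that held all 5 mice with TH (46.2, 37.2, 42.2, 32.1 and 49.0).

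Dtx3l was called at all 4 times, with log2 fold changes of 0.57 ± 0.17, 1.00 ± 0.17, 0.89 ± 0.17 and 0.53 ± 0.17. It had 82.9 to 115 normalised counts on PTU and was above that range in all mice at 6, 12 and 24 h (174, 238, 218 and 197 at 6 h). Bst2 (tetherin), which holds viruses at the cell surface, had 26.1, 19.1, 25.7 and 17.3 on PTU, 41.2, 36.4, 38.5 and 48.0 at 3 h, and 43.7, 37.7, 49.7 and 47.7 at 24 h, with no overlap, and was called at 3 h (0.86 ± 0.24) and 24 h (1.00 ± 0.24). Irf9 was called at 3 h (0.62 ± 0.18) and 6 h (0.51 ± 0.18), Parp14 at 3 h (0.60 ± 0.16) and 24 h (0.44 ± 0.16), and Irf1 at 24 h (0.69 ± 0.22). Of these 3 genes, Irf1 changed most, 1.61-fold.

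Irf9 had 74.3, 65.8, 78.0 and 85.2 normalised counts on PTU and 129.9, 89.5, 99.9 and 152 at 3 h, without overlap. Parp14 had 86.4, 73.0, 74.7 and 85.2 on PTU and 124, 109, 119 and 138 at 3 h, also without overlap. Irf1 overlapped, with 52.2, 46.6, 66.4 and 47.2 on PTU and 69.9, 102, 65.2 and 108 at 24 h. The genes that fell were Usp18 (-0.97 ± 0.32) and Ifi44 (-1.07 ± 0.35) at 6 h and Ifi27 at 24 h (-0.27 ± 0.10). Ifi44, a GTP-binding protein of the interferon response, had 34.2, 47.8, 28.2 and 35.7 on PTU and 24.4, 18.14, 17.5 and 10.01 at 6 h. Usp18 had 30.1, 21.5, 21.6 and 18.4 on PTU and 17.3, 6.05, 11.4 and 11.8 at 6 h. Ifi27 had 2879, 2739, 2702 and 2788 on PTU and 2336, 2432, 2205 and 2235 at 24 h. All mice with TH were below all PTU mice for these 3 genes at those times. The calls of Gbp3 at every time, Dhx58 at 12 and 24 h, Dtx3l at 6 and 12 h and Bst2 at 24 h held when any 1 mouse was left out, and the remaining calls, with Parp14 at 24 h not examined, were lost for 1 to 6 of the 8 mice. Fitting WT and BATKO mice together (30 mice) also ended the calls of Dhx58 and Ifi44 at 6 h and of Ifi27 at 24 h.

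**Figure D4:**
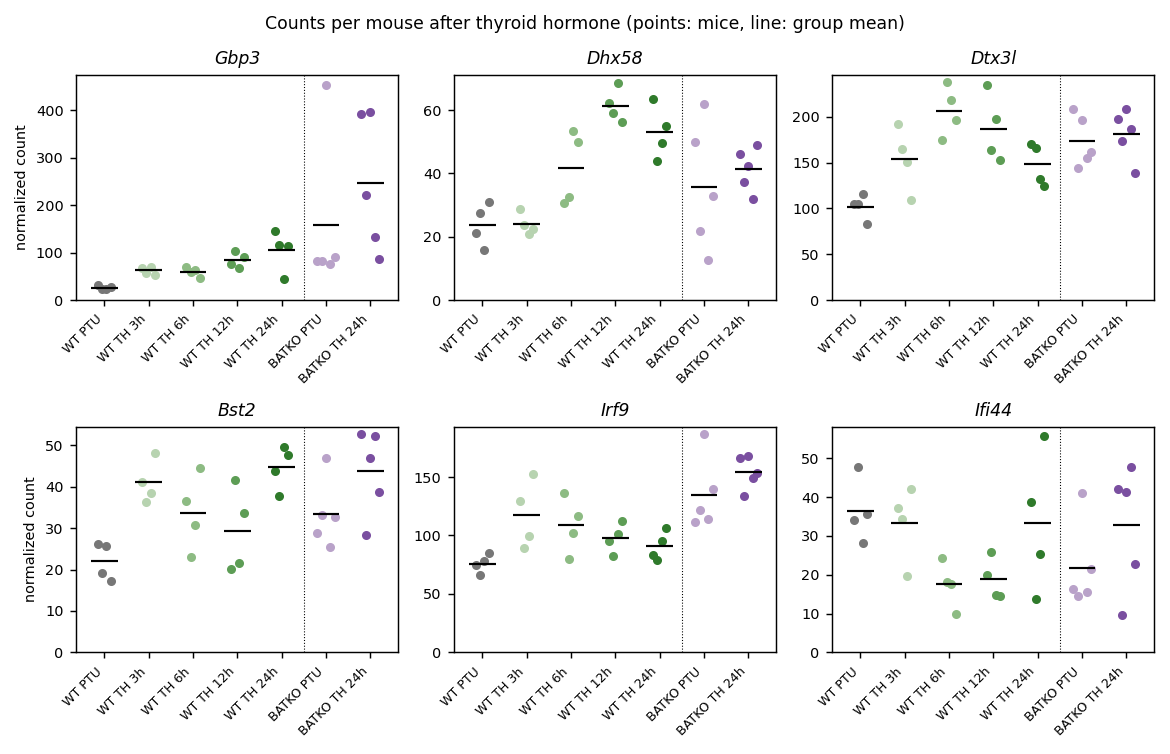
Normalised counts per mouse (points, with a line at the group mean) of Gbp3, Dhx58, Dtx3l, Bst2, Irf9 and Ifi44 in WT mice on PTU and 3, 6, 12 and 24 h after TH, and in BATKO mice on PTU and 24 h after TH. Gbp3 is higher in every WT mouse with TH than on PTU, and the BATKO groups of all 6 genes overlap.

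In the 3 h group, mouse B11 stood apart with a summed count of 3 neutrophil markers of 833 and of 6 macrophage markers of 1175, against at most 21.6 and 486 in the 3 other mice, and it had the highest value of 16 of the 32 list genes. With all mice, 1 of the 2 tested neutrophil markers was called at 3 h and rose, with a median log2 fold change of 3.30 over the 2. Without mouse B11, 2 genes of the list were called at 3 h, and the part of these cells in the result was not tested. At 24 h, 1 of 6 macrophage markers rose, Cd68 (median of the 6 0.39), with sums of 371 to 603 on PTU and 493 to 855 with TH. Of the 5 brown adipocyte markers, Ucp1 rose and Cidea, Elovl3 and Adipoq fell (median -0.86), while at 3 and 6 h Ucp1 and Ppargc1a rose, and at 12 h Ucp1 rose and Adipoq fell. Of 3 endothelial markers, Cdh5 fell at 12 h, and Kdr rose and Pecam1 fell at 24 h, and of 3 fibroblast and progenitor markers, Lum fell at 24 h. Mouse B27 had the highest neutrophil and macrophage sums of the 24 h group, 139 and 855. The part of these markers in the results after TH was not tested.

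In BATKO mice, TH called 0 of 32 tested genes of the list and 0 of 14178 genes in all (0.00%) in edgeR. At an unadjusted p below 0.05 there were 6 list genes, and DESeq2 called 0. Of the 32 estimates, 28 were above 0, with a median of 0.26 against -0.01 for all genes. These signs are not independent, since the list genes moved together within mice. Mice 7 and 9 with TH held the highest value of their group for 14 and 9 of the 32 genes, and PTU mouse 4 for 26. The test of the difference between the 24 h responses of BATKO and WT mice called 0 of 32 list genes (4 at an unadjusted p below 0.05, 0 by DESeq2, 12.3% of all genes called). The smallest adjusted p was that of Dhx58 (-0.97 ± 0.40, edgeR adjusted p = 0.12), and Gbp3 differed by -1.34 ± 0.68. The count was 1 without WT mouse B24 or BATKO PTU mouse 11. Levels of WT and BATKO mice were not tested against each other in this experiment, where genotype and any difference in handling cannot be told apart. At 3 h, 5 of 42 tested genes of the wider pathway rose in WT mice and 0 fell (5.10% and 4.09% of all genes). At 6 h it was 5 and 3 (12.1% and 10.9%), at 12 h 5 and 4 (13.6% and 12.1%), and at 24 h 10 and 2 (17.2% and 15.5%). Mavs rose at all 4 times in WT mice (0.49, 1.03, 1.24 and 1.34, each ± 0.11), as did the adaptors Myd88 and Ticam1 and the proteasome subunit Psmb10. Tyk2 and Eif2ak2 were among the genes that fell at 6 and 12 h, and Nlrc5 at 12 and 24 h. Mavs had 861 to 1061 normalised counts on PTU, 1271 to 1553 at 3 h and 2207 to 2877 at 24 h, and its 24 h response was smaller in BATKO by 1.36 ± 0.23 (edgeR adjusted p = 0.00028). This difference of responses was called for 5 of 43 tested pathway genes (12.3% of all genes). It was negative for Mavs, Tlr7, Ticam1 and Ifi35 and positive for Nlrc5.

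A short HFD raised 4 of 35 tested genes in CTRL mice and lowered 0 in edgeR (8 by DESeq2, and 12 with no filter on low counts), where 1.89% of all 12932 genes rose and 2.04% fell. The median log2 fold change was 0.52 for the list and 0.01 for all genes, 33 of 35 estimates were above 0 and 11 had an unadjusted p below 0.05. For 11 genes, all HFD mice lay above all chow mice (5.15% of all genes).

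Trim25 (chr11:88999376-89020293, + strand) had 391, 260.0, 230.0 and 226 normalised counts in CTRL mice on chow and 516, 600, 695 and 568 on HFD, without overlap, a rise of 1.10 ± 0.18 (edgeR adjusted p = 0.0049). Ifi27 had 2157, 1936, 2445 and 2269 on chow and 3398, 4174, 3061 and 3404 on HFD, also without overlap (0.67 ± 0.13, adjusted p = 0.011). These calls held when any 1 mouse was left out. Zbp1 rose by 1.82 ± 0.43, from 16.5, 9.10, 12.1 and 25.5 to 42.9, 93.4, 43.8 and 45.8. Cmpk2, a mitochondrial nucleotide kinase, rose by 1.15 ± 0.29, from 150.4, 80.9, 77.3 and 85.4 to 206, 286, 183 and 204. The groups of Zbp1 and Cmpk2 did not overlap, but the call of Zbp1 was lost when any 1 of 5 of the 8 mice was left out, that of Cmpk2 for any 1 of 7, and both without the 2 muscle-rich chow mice. The count of called genes was 3 without those 2 chow mice, and 2 without HFD mouse 9 or 11 or chow mouse 2 or 3.

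The macrophage marker sum was 505 to 627 in CTRL mice on chow and 765 to 1563 on HFD, with 1 of 6 markers called, C1qb (0.79 ± 0.18), and the median over the 6 was 0.75. Ptprc was not called (24.2 to 60.5 and 40.2 to 104 normalised counts), and plasmacytoid dendritic cell markers summed to at most 3.26 in any of these mice. The sum of 3 dendritic cell markers was 1.86 to 13.8 on chow and 12.1 to 59.3 on HFD, and that of 3 B cell markers was 5.59 to 10.9 and 1.10 to 3.26, without overlap. The part of these cell types in the result was not tested. Of the wider pathway, 2 of 45 tested genes rose, the MHC class II activator Ciita (1.77 ± 0.46) and Lgals3bp (1.02 ± 0.18), and 0 fell.

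Mice of the same diet group differed widely in these genes. In CTRL mice on chow, mice 1 and 4 held the 2 highest values for 33 and 32 of 35 genes (Gbp2 at 1319 and 1568 normalised counts, against 425 and 389 in mice 2 and 3). The same was seen for Igtp, at 1317 and 1825 against 412 and 438. In BATKO mice on HFD, mouse 14 was the highest for 33 of 35 genes and mouse 12 the lowest for 34 (Gbp2 at 1161 and 388, Iigp1 at 1047 and 188). The median SD on the log2 scale within the group was 0.56 for the list and 0.22 for all genes in CTRL mice on chow, and 0.75 and 0.19 in BATKO mice on HFD. In the temperature experiment the list and all genes had 0.23 and 0.23 in CTRL mice at 30 °C, 0.28 and 0.28 at 4 °C, 0.22 and 0.27 in BATKO mice at 30 °C, and 0.32 and 0.26 at 4 °C. In WT mice 24 h after TH the list had 0.53 against 0.26 for all genes, with mouse B28 highest for 17 of 32 genes and B27 lowest for 20.

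**Figure D5:**
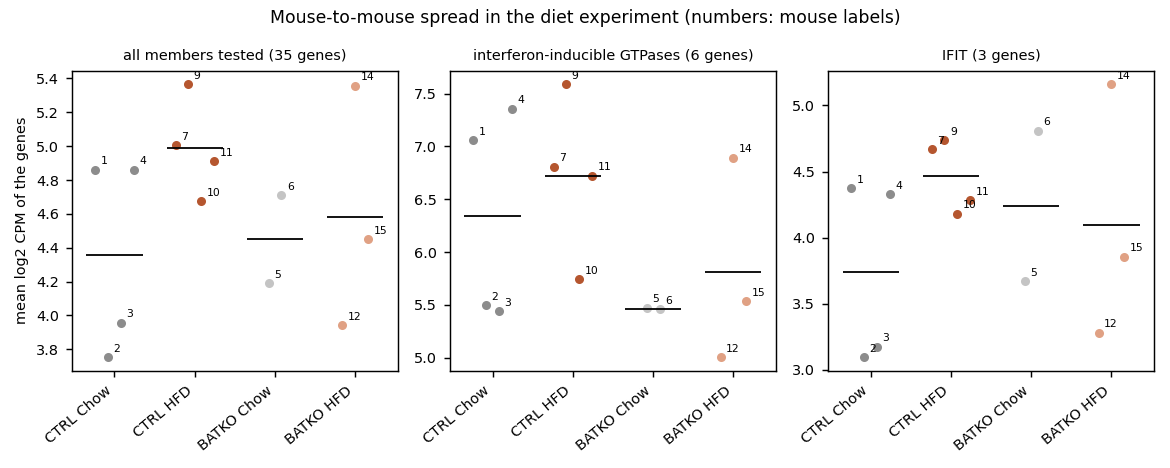
Mean log2 CPM (counts scaled to library size) over all 35 tested genes, the 6 GTPases and the 3 Ifit genes, with 1 numbered point per mouse, in CTRL and BATKO mice on chow and HFD. CTRL chow mice 1 and 4 lie above 2 and 3, and BATKO HFD mouse 14 above 12 and 15.

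In BATKO mice, HFD called 0 of 35 genes in edgeR (2 at an unadjusted p below 0.05, 1 by DESeq2, 0.0696% of all genes called), with 2 mice on chow. The difference between the diet responses of the genotypes called 0 of 35 (5 at an unadjusted p below 0.05, 0 by DESeq2, 0.00% of all genes). BATKO and CTRL mice on HFD differed in 0 of 35 (1 and 0 by the same measures, 0.00% of all genes), and on chow in 0 of 35 (8 and 0, 0.00% of all genes), or 11 with no filter on low counts. Trim25 had 396 and 477 normalised counts in the BATKO mice on chow and 460.4, 639 and 684 on HFD, and Ifi27 had 2149.6 and 2268 on chow and 2849, 4049 and 3729.8 on HFD, without overlap for Ifi27 (0.68 ± 0.17, edgeR adjusted p = 0.11).

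Gbp3 was the gene called most often, in 6 of the 16 comparisons. Besides its 4 rises after TH, of which those at 3 and 6 h were not called in the 30 mice together, it fell in the cold in CTRL mice, from 115, 142, 179 and 131 normalised counts at 30 °C to 71.1, 32.1 and 49.0 at 4 °C (-1.47 ± 0.32). In BATKO mice Gbp3 went from 147, 123, 134, 114 and 95.7 to 110.4, 37.7, 50.1 and 72.6 (-0.85 ± 0.27), where 1 cold mouse lay within the range of the 30 °C mice. In the diet experiment Gbp3 had 547, 190.2, 183 and 583 on chow and 510.3, 843, 291 and 431 on HFD in CTRL, and 202 and 228 on chow and 206, 599 and 236 on HFD in BATKO. It was not called there (0.46 ± 0.43 and 0.70 ± 0.57). Dhx58, called in 5 comparisons, rose in the cold in both genotypes and from 6 h after TH in WT mice. Ifi27 rose in the cold in both genotypes and on HFD in CTRL mice, and fell 24 h after TH in WT mice. Oasl1, tested in the temperature and diet experiments, and Mx2, tested only in the diet experiment, were not called there, and Oas1a, Oas3 and Mx1 were tested in none.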

How the data were processed

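RNA of BAT from 59 mice was extracted with Trizol and sequenced from total-RNA libraries on an Illumina sequencer. Per the submitters' processing notes and methods, the authors aligned reads with Bowtie2 2.3.2.2 to mm10, dropped low-quality alignments, counted with htseq-count, and deposited raw counts per gene. Gene annotation and strand setting are not given in the sources used here.

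The deposited counts were analysed with edgeR 4.0.16 in R 4.3.3 (TMM scaling, quasi-likelihood test, Benjamini-Hochberg adjustment, threshold 0.05, no fold threshold), with 1 fit each for the 20 WT mice of the TH experiment, all its 30 mice, the 16 temperature mice and the 13 diet mice, and a mean normalised count above 10. The standard error is the log2 fold change over the root of the F statistic. DESeq2 1.42.0 was an alternative. The fits were tested on simulated data, where a first limit on recovery was not met and was replaced by a lower one. The gene list, the pathway and marker lists and the tests were chosen with earlier results of these data known. Named genes were the 6 called genes of smallest adjusted p in each comparison. The others, Dhx58, Ifi27, Isg15 and Iigp1 in the cold among them, were named as examples of their role after their values were seen. A fall of a gene to few counts is limited by counting error. No 2 mice of a group agreed within sampling noise (lowest chi-square per degree of freedom 7.47 over 91 pairs). Nothing in the sources says that the mice were littermates. The p-values set the difference between groups against the spread between mice, estimated over all groups of a fit. Coordinates are from GENCODE on GRCm38. The result of 1 pathway gene is not reported here.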

Additional observations from a re-analysis of the deposited data

Results flagged for a closer look

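Among the genes named for each comparison, single mice far from the rest of their group were looked for with Dixon's ratio (the gap to the nearest mouse over the range of the group, read against the 95% critical value). Of 56 groups tested, 3 passed, where chance gives about 1 in 20, or 2.8. Cmpk2 in CTRL mice on chow had a ratio of 0.888, with mouse 1 at 150.4 normalised counts and the others at 77.3 to 85.4. Tap1 in BATKO mice at 4 °C had a ratio of 0.881, with mouse 7 at 129.9 and the others at 80.1 to 85.97. Zbp1 in CTRL mice on HFD had a ratio of 0.942, with mouse 9 at 93.4 and the others at 42.9 to 45.8.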

How the results depend on the processing

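The counts of called genes in the cold kept within 1.5 times under every alternative tried, at 22 to 30 in CTRL and 18 to 27 in BATKO mice. DESeq2 called 5 genes at 12 h of TH in place of 3, 8 with HFD in CTRL in place of 4, and 1, 1 and 2 in place of 0 for HFD in BATKO, BATKO against CTRL at 4 °C and the genotype difference of the cold response. With no filter on low counts the calls were 5 at 12 h of TH, 12 and 1 with HFD in CTRL and BATKO, 11 for BATKO against CTRL on chow and 3 for the genotype difference of the diet response. Fitting only the groups compared gave 7 at 12 h of TH. Without the muscle-rich mice, an alternative chosen after seeing the data, BATKO against CTRL at 4 °C gave 1. Leaving out the mitochondrial genes, also chosen after seeing the data, RLE size factors, a filter at a mean of 50 and fitting WT and BATKO mice together after TH (30 mice) moved no count by over 1.5 times. The cause of these shifts was not tested. Leaving out 1 mouse at a time gave 1 to 6 calls at 3 h of TH (1 without PTU B3, 2 without B11, 3 without PTU B2, PTU B5 or B7), 2 to 6 at 6 h (2 without B15, 3 without PTU B3), 3 to 5 at 12 h (5 without B20), 4 to 6 at 24 h (4 without PTU B3 or B5) and 2 to 4 with HFD in CTRL (2 without HFD 9 or 11 or chow 2 or 3). It gave 0 to 1 for the genotype difference after TH (1 without WT B24 or BATKO PTU 11), for BATKO against CTRL at 4 °C and for the genotype difference in the cold (1 without BATKO 4C mouse 11), 27 to 30 for cold in CTRL, 20 to 27 for cold in BATKO, and 0 elsewhere. No result reversed. No paired analysis was possible because the mouse numbers of the groups compared are not shared in the labels. Members with a mean under 10 counts could not be compared at this depth.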

Other observations

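Mice on PTU in the BATKO group also differed among themselves, mouse 4 holding the highest value of 26 of the 32 tested genes of the list. The 2 BATKO mice on chow were ordered alike for most genes, mouse 6 being the higher for 28 of 35.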
